A study of Mus musculus with 94 samples.

Results

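Brains of Mgmt-/- mice collected 168 hr after a single dose of methylazoxymethanol (MAM) are described here against brains of Mgmt-/- mice collected 168 hr after vehicle. The members were chosen by genotype, treatment and time as labelled, which gave 5 MAM and 6 vehicle arrays, 11 of the 94 arrays of the series. The array of MAM animal A343 was left out because it carried liver RNA (animals are written here as A and their number). All animals were male C57BL6 mice, labelled eleven-week-old. MAM was given once by intraperitoneal injection at 20 mg/kg, and RNA came from half-brains. The 4 groups of the 168 hr time point were Mgmt-/- MAM (5 arrays), Mgmt-/- vehicle (6), wild-type (wt) MAM (5) and wt vehicle (6), and 12 Mgmt-/- arrays at each of 6, 24 and 48 hr (MAM and vehicle together) served for the comparison over time. Mgmt-/- mice lack the gene in every cell, so the vehicle brains of this comparison carried the deletion too. A half-brain mixes all of its cell types, and in such a sample fewer cells of a type and less RNA per cell cannot be told apart.

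MAM is the aglycone of cycasin, a toxin of cycad seed, and it methylates DNA. Among the lesions it leaves, O6-methylguanine is reversed by the enzyme O6-methylguanine-DNA methyltransferase, which the Mgmt gene encodes and which uses itself up by taking the methyl group. Among the genes that moved most at this time were targets of the glucocorticoid receptor, a nuclear receptor that corticosterone sends into the nucleus, where it binds palindromic DNA elements and induces a set of genes shared by neurons, glia and vessels, including its own feedback inhibitor Fkbp5.

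Each array was an Affymetrix whole-genome mouse array, and its values are robust multi-array average (RMA) values in log2 units, so that a difference of 1 is a doubling. The animal numbers fell into a 300s and a 900s set, with 2 MAM and 3 vehicle arrays in the 300s and 3 and 3 in the 900s, and the number set was kept as a block in the fit. The 11 arrays correlated with their groups at 0.987 to 0.993, whereas that of animal A343 correlated at 0.740 and had a median of 13.57 over the liver list (4.63 to 6.15 in the other Mgmt-/- arrays at 168 hr). Traces of liver transcripts varied in both groups, and the mean level of the 15 measured liver genes was 5.70 to 6.74 after MAM and 5.50 to 6.88 after vehicle. RNA integrity was read from an index, the 3' minus 5' signal of the actin and Gapdh control probe sets, which was 0.471 to 0.553 after MAM and 0.393 to 0.792 after vehicle (difference -0.032, two-sided exact permutation test within number sets, p = 0.66, smallest possible p 0.005). That mean hides opposite differences, since the difference was -0.160 in the 300s set, where both MAM arrays (0.471 and 0.514) lay below all vehicle arrays (0.581 to 0.792), and 0.087 in the 900s set, where all 3 MAM arrays (0.510 to 0.553) lay above all vehicle arrays (0.393 to 0.493). The 42 genes called below had the same direction in both sets, but the arrays of both sets chose these genes. Their shared direction therefore cannot tell whether RNA integrity had a part in the differences.

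Mgmt itself did not separate the genotypes on this array. Its level was 5.70 ± 0.34 in Mgmt-/- MAM brain (SD, n = 5), 5.78 ± 0.23 in Mgmt-/- vehicle brain (n = 6), 5.78 ± 0.17 in wt MAM brain (n = 5) and 5.75 ± 0.09 in wt vehicle brain (n = 6). No source used here places its probe set relative to the deleted part of the gene, so this value checks nothing about the genotype labels. MAM minus vehicle in Mgmt-/- brain was -0.06 (SE 0.15, adjusted p = 0.96, limma).

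Of 18194 genes, each read by its brightest probe set, 23 were higher (0.126%) and 19 were lower (0.104%) in MAM than in vehicle brain. A gene was called at an adjusted p under 0.05 and a fold above 1.3 by limma, with p-values adjusted over all 45101 probe sets, and 3730 probe sets (8.27%) had an unadjusted p under 0.05. All 42 called genes moved in the same direction in both number sets, though not always by a like amount. The study's laboratory filter drops probe sets whose effect varies between laboratories (interaction p under 0.15). Applied here between the number sets, it dropped the probe sets of 9 of the 42. In 21 of the 23 higher genes every MAM brain lay above every vehicle brain (true of 0.665% of all genes), and in 15 of the 19 lower genes every MAM brain lay below (0.89%). These brains also chose the calls, so these are descriptions. The plot of each number set against the other shows the 42 genes in its upper right and lower left corners, while over all genes which are not independent replicates, the differences of the 2 sets had a correlation of -0.03. When the spread was estimated from all 22 arrays at 168 hr, wt included, 60 genes were higher (0.33%) and 81 lower (0.445%), and 39 of the 42 were among them. The call depends on the moderated test: an ordinary linear model called 0 genes, and leaving out 1 array left 5 to 23 higher and 0 to 23 lower genes (5 and 0 without vehicle animal A919, 11 and 0 without MAM animal A345, 7 and 0 without vehicle animal A923). Etnppl, Fam107a, Lrg1, Sgk1 and Sult1a1 kept their call whichever array was left out, Bcs1l, Coa3 and Vwf lost it each time, and the rest lost it without at least 1.

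**Figure D1:**
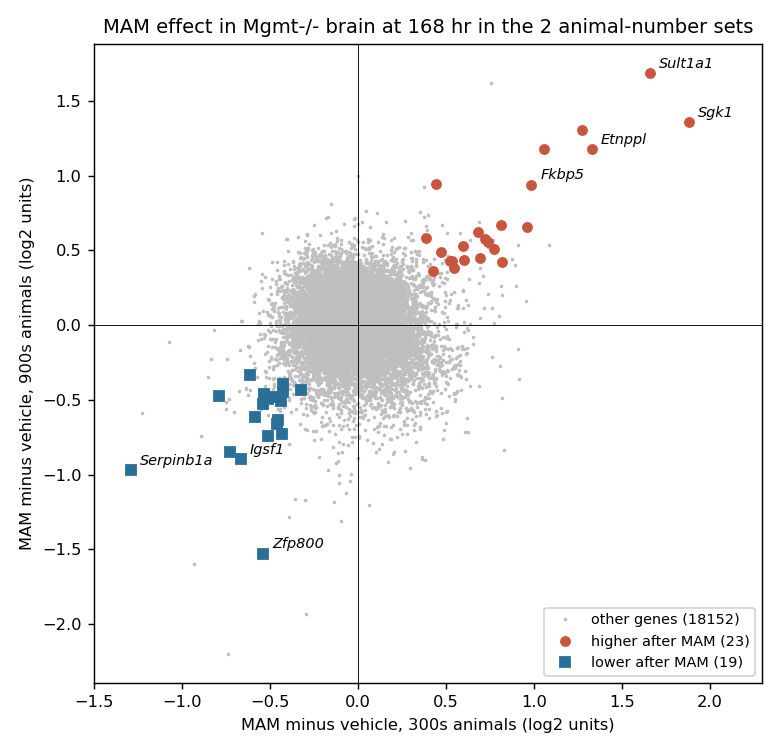
MAM minus vehicle in Mgmt-/- brain at 168 hr in the 300s animals (horizontal axis) and in the 900s animals (vertical axis), both in log2 units, with 1 point per gene. The 23 genes called higher (circles) and the 19 called lower (squares) have the same sign on both axes, with Sult1a1 at 1.66 and 1.69 and Serpinb1a at -1.29 and -0.97, and the other genes (grey) have a correlation near 0 (-0.03 over all genes).

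Sult1a1, Sgk1, Fkbp5, Fam107a, Bcl6 and Gjb6, which glucocorticoids induce, rose in MAM brain. Of 38 measured genes of the glucocorticoid-induced list, these 6 were called higher and 0 lower (against 0.126% of all genes), 37 had a positive difference (48.5% of all genes did), and the median difference was 0.39, against -0.00 over all genes. With the spread shared with wt, 16 of the 38 were called higher and 0 lower. The list held genes named by an earlier analysis of these arrays, so its direction is not independent evidence. The median was 0.51 in the 300s animals, 0.39 in the 900s animals and 0.05 in wt brain.

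Letters of the glucocorticoid response element stood in the promoter windows of some of these genes. The motif searched was GNACA and TGTNC set 3 bases apart, where N is any base (the same on both strands), in RefSeq windows of 250 bases before to 50 after each start (GRCm38.p6). It was found in 5 of 33 listed genes with a window (15.2%; Fam107a, Map3k6, Mt1, Sgk1 and Txnip), in 2 of 17 genes called higher (11.8%), in 0 of 15 called lower, and in 61 of 14453 measured genes with a window (0.422%). Such a match is a description of letters, and a window without it says nothing about the receptor. The windows of Sgk1 and Fam107a are shown because both genes were called and kept their call whichever array was left out, with the matched letters in capitals. That of Sgk1, 1 of its 6 windows, lies at chr10:21993640-21993939 on the plus strand, with the match beginning 188 bases upstream of the start. That of Fam107a, 1 of its 3 windows, lies at chr14:8309730-8310029 on the minus strand, with the match 118 bases upstream.
Sgk1: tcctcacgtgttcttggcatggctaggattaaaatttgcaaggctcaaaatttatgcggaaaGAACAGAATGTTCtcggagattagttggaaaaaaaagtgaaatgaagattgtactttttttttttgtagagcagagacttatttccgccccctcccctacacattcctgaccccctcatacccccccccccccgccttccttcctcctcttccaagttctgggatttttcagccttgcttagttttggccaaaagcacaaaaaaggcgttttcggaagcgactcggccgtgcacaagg
Fam107a: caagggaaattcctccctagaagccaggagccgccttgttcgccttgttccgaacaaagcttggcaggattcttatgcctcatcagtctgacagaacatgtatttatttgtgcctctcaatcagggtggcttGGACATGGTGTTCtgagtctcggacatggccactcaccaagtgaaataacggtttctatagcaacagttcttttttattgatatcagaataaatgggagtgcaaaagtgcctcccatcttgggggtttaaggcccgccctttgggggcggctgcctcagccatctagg

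Sult1a1, a sulfotransferase that conjugates phenols and that glucocorticoids induce in rodent liver, had the largest rise. It measured 8.46, 8.75, 8.82, 8.02 and 8.77 in MAM animals A345, A347, A967, A969 and A971, against 6.68 at the lowest, 6.87 at the median and 7.10 at the highest in vehicle brain. The groups were thus separated by almost a log2 unit, with animal A969 the lowest of the MAM brains. The fitted difference was 1.68 (SE 0.14, 3.20-fold, adjusted p = 0.00084), with 1.66 in the 300s and 1.69 in the 900s animals and 1.60 to 1.80 with each array left out.

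Sgk1, a serum- and glucocorticoid-regulated kinase that controls ion channels and transporters, measured 10.88, 11.35, 11.15, 10.22 and 10.93 in the MAM brains in the same order of animals, against 9.14, 9.32 and 9.51 (lowest, median and highest) in vehicle brain. Every MAM brain lay well above every vehicle brain. The difference was 1.59 (SE 0.16, 3.01-fold, adjusted p = 0.0033), 1.88 in the 300s and 1.36 in the 900s animals.

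Fkbp5, an immunophilin of the receptor's chaperone complex that lowers its affinity for hormone, measured 8.80, 9.39, 9.03, 8.42 and 8.91 in MAM brain, against 7.82, 7.93 and 8.28 in vehicle brain. Animal A969 came closest to the vehicle brains and still lay above them. The difference was 0.96 (SE 0.13, 1.95-fold, adjusted p = 0.014). Fam107a, an actin-associated stress-induced protein, measured 13.09, 13.22, 13.10, 12.95 and 12.97 in MAM brain and 12.35, 12.40 and 12.54 in vehicle brain. Its difference of 0.64 (SE 0.07, adjusted p = 0.0076) had the smallest error of the 4. Bcl6, a zinc finger repressor, reached 0.56 (SE 0.10, adjusted p = 0.048) with overlapping groups, since its lowest MAM brain, animal A971, was at 8.08 and its highest vehicle brain at 8.17. Gjb6, the astrocyte gap junction protein connexin 30, measured 10.05, 10.31, 10.23, 10.10 and 9.94 in MAM brain, against 9.61, 9.65 and 9.70 in vehicle brain (difference 0.47, SE 0.08, adjusted p = 0.034).

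The other 10 members passed only with the spread shared with wt, and those given here were picked after their values were seen. Plin4, a lipid droplet coat protein, measured 5.72, 6.39, 7.02, 5.83 and 6.72 in MAM brain, against 4.82, 5.02 and 5.50 in vehicle brain (difference 1.24, adjusted p = 0.065 in the fit of 11 arrays and 0.0012 in that of 22). Nfkbia, the inhibitor that holds NF-kB in the cytoplasm, measured 10.55, 11.36, 11.09, 10.72 and 11.09 in MAM brain, against 10.16, 10.27 and 10.39 in vehicle brain (0.69, adjusted p = 0.066 and 0.0093). Both were thus higher in every MAM brain. Arrdc2, an arrestin domain protein, differed by 1.10 (adjusted p = 0.074 and 0.0033), Ddit4, an inhibitor of mTORC1 signaling, by 0.78 (0.078 and 0.0034), and Txnip, which binds thioredoxin and limits glucose uptake, by 0.52 (0.11 and 0.0080). Cdkn1a, the cyclin-dependent kinase inhibitor p21, is also a target of p53; its difference was 0.70 (0.24 and 0.043), and the groups overlapped, at 7.37 to 8.97 in MAM brain and 7.19 to 7.70 in vehicle brain. Not every well-known target differed. Dusp1, a MAP kinase phosphatase, measured 9.35 to 9.58 in MAM brain, inside the 8.76 to 9.96 of vehicle brain, and was the only listed gene with a negative difference (-0.07, SE 0.14). Tsc22d3, Per1 and Klf9 had differences of 0.13, 0.19 and 0.24 and did not pass in either fit.

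The receptor and the hormone axis did not pass the test. Of 15 measured genes for the receptor, its chaperones, coactivators and the hormone axis, 0 were called in either fit, and their median was -0.04. Nr3c1, the receptor itself, measured 8.97 to 9.49 in MAM brain and 9.28 to 9.49 in vehicle brain (difference -0.19, SE 0.10, adjusted p = 0.67). Avp, vasopressin, had the largest difference of the list, -0.29.

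**Figure D2:**
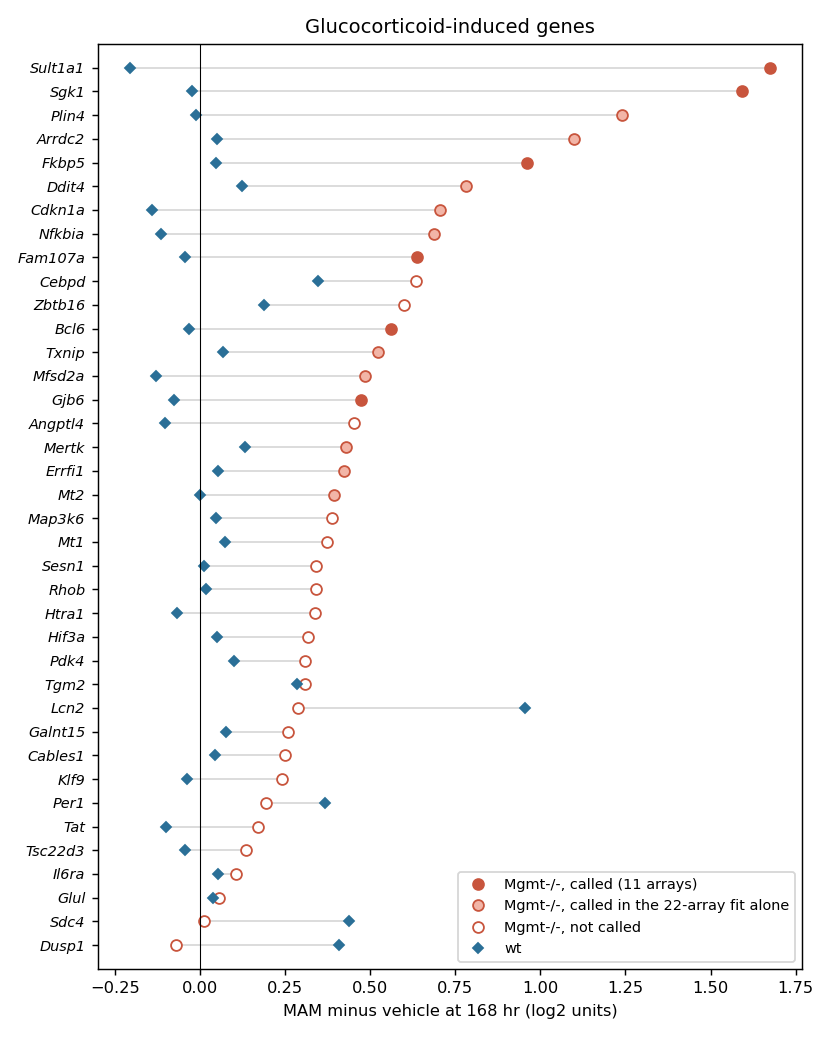
MAM minus vehicle at 168 hr in log2 units (horizontal axis) for the 38 measured glucocorticoid-induced genes (1 row each), with filled circles for genes called in Mgmt-/- brain from 11 arrays, pale circles for those called only with the spread shared with wt, open circles for those not called, and diamonds for wt brain. In Mgmt-/- brain 37 of the 38 values lie above 0, up to 1.68 for Sult1a1, while the wt values lie around 0 with a median of 0.05.

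Other called genes with higher levels were not gathered in 1 list. Etnppl, an ethanolamine phosphate phospho-lyase of astrocytes, measured 10.55, 10.38, 10.80, 10.26 and 10.51 in MAM brain, against 8.75, 9.33 and 9.43 in vehicle brain. Here the 5 MAM brains were close together and the low vehicle value belonged to animal A319 alone. The difference was 1.24 (SE 0.13, 2.37-fold, adjusted p = 0.0033), and 0.48 at the next brightest probe set. Xdh, the xanthine dehydrogenase of purine breakdown, measured 6.19, 7.06, 6.65, 6.47 and 6.92 in MAM brain, against 5.38, 5.52 and 5.72 in vehicle brain (difference 1.12, SE 0.14, adjusted p = 0.011). The groups did not overlap. Prodh, which starts proline breakdown in mitochondria, differed by 0.56 (adjusted p = 0.022), and the cytochrome P450 genes Cyp2d22 and Cyp4f15 by 0.64 and 0.63 (adjusted p = 0.011 and 0.018). Gm19439, a predicted gene, measured 7.86, 8.76, 8.67, 8.01 and 8.76 in MAM brain, against 6.82, 7.14 and 7.25 in vehicle brain (1.29, SE 0.17, adjusted p = 0.014). Of the 21 measured genes of xenobiotic conjugation and purine oxidation, Sult1a1 and Xdh were called higher and 0 lower (against 0.126% of all genes called higher), and the list's median was 0.01. Sult1a1 and several of these enzymes are abundant in liver, and the liver list moved differently in the 2 number sets. Its median level was 5.4 and 5.7 in the 300s MAM brains, against 4.90 to 6.15 in the 300s vehicle brains, and 5.12 to 5.61 in the 900s MAM brains, against 4.63 to 5.09 in the 900s vehicle brains. Of its 15 measured genes 0 were called, with a median difference of 0.17 (0.06 in the 300s and 0.23 in the 900s), and the part of liver RNA in these differences was not tested.

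Apod, apolipoprotein D, a lipocalin of glia, measured 12.49, 12.19, 12.22, 11.89 and 12.07 in MAM brain, against 11.47, 11.57 and 11.74 in vehicle brain (difference 0.60, SE 0.10, adjusted p = 0.04). It was the only called gene among 12 of cholesterol efflux and transport (0.126% of all genes were called higher). That list had 7 positive and 5 negative differences, with a median of 0.02. Lrg1, a secreted leucine-rich glycoprotein of vessels and of the acute phase, measured 5.24, 5.56, 5.08, 4.98 and 5.29 in MAM brain, against 4.27, 4.49 and 4.55 in vehicle brain (0.79, SE 0.10, adjusted p = 0.011). No vehicle brain reached the lowest MAM brain, but with the spread shared with wt it did not pass (adjusted p = 0.17), with a difference of 0.40 in wt brain. The elastic fiber protein Fbln5 differed by 0.73 (adjusted p = 0.021), the matricellular protein Ccn2 by 0.65 (0.045) and the small proteoglycan Fmod by 0.49 (0.04). Among the other called genes were the kinase Dyrk3 (0.47), the chloride channel family member Ttyh1 (0.45), Spaca6 (0.51), the lipid flippase Atp10a (0.48) and Scrg1 (0.39). All of these were higher in every MAM brain except Ccn2, whose groups overlapped.

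**Figure D3:**
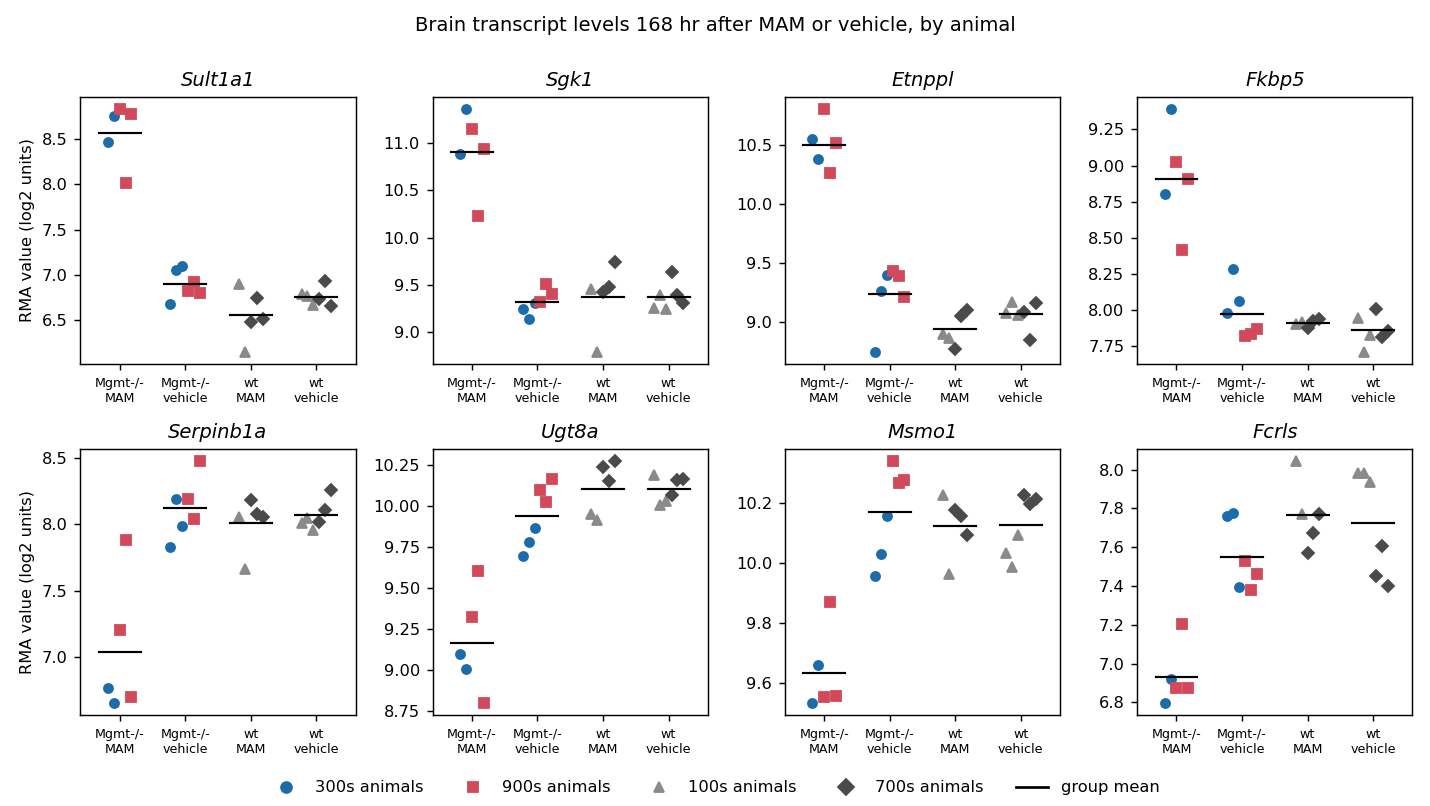
RMA values in log2 units (vertical axes) of 8 genes in each animal at 168 hr, in Mgmt-/- MAM, Mgmt-/- vehicle, wt MAM and wt vehicle brain from left to right, with marker shapes for the animal-number sets and a line at each group's mean. Sult1a1, Sgk1, Etnppl and Fkbp5 are above all vehicle brains in each of the 5 Mgmt-/- MAM animals, Ugt8a, Msmo1 and Fcrls below all of them, Serpinb1a overlaps in animal A969, and the wt groups lie together.

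Genes of cholesterol synthesis had mostly negative differences, with 1 call. Msmo1, the methylsterol monooxygenase that takes methyl groups off sterol intermediates, measured 9.53, 9.66, 9.55, 9.87 and 9.56 in MAM brain, against 9.96, 10.21 and 10.34 in vehicle brain. No MAM brain reached the lowest vehicle brain. The difference was -0.55 (SE 0.08, adjusted p = 0.023), but 0.01 at its next brightest probe set. Of 17 measured genes of the pathway, Msmo1 was called lower and 0 higher (against 0.104% of all genes called lower), and 16 had a negative difference (48.5% of all genes had a positive one). In 6 every MAM brain lay below every vehicle brain (against 0.89% of all genes), and the list's median was -0.29 (-0.06 in wt brain). With the spread shared with wt, 5 passed, 4 of them named here after their values were seen. Idi1, the isopentenyl diphosphate isomerase, measured 8.24, 8.31, 8.13, 8.57 and 7.92 in MAM brain, against 8.61, 8.72 and 8.92 in vehicle brain (-0.49, adjusted p = 0.12 in the fit of 11 arrays and 0.0095 in that of 22). Hmgcs1, the synthase before the rate-limiting reductase, measured 11.38, 11.41, 11.30, 11.44 and 11.18 in MAM brain, against 11.64, 11.70 and 11.94 in vehicle brain (-0.38, adjusted p = 0.075 and 0.025). The difference was of like size at a second probe set of Hmgcs1 (-0.35, adjusted p = 0.19 in the limma fit of 11 arrays) and larger at that of Idi1 (-0.76, adjusted p = 0.36). Neither second probe set passed. Cyp51, the lanosterol demethylase, and Mvd, the mevalonate diphosphate decarboxylase, differed by -0.47 and -0.40 (adjusted p = 0.087 and 0.15 in the fit of 11 arrays).

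These enzymes are induced together by SREBP2, a membrane-bound transcription factor that is released when sterols are low and that acts at promoters with the CCAAT-binding factor NF-Y. The letters CCAAT, on either strand, stood in the windows of 14 of 14 cholesterol synthesis genes with a window (100%), of 9 of 13 SREBP and fatty acid genes (69.2%) and of 42% of all 14453 measured genes with one. The sterol regulatory element letters TCACNCCAC, on either strand, stood in 1 of the 14 (7.14%, Hmgcs1) and in 1.46% of all. The windows of the called gene Msmo1 and of Hmgcs1, the one with both motifs, are shown with matches in capitals. The window of Msmo1, chr8:64733529-64733828 on the minus strand, holds CCAAT beginning 160, 96 and 55 bases upstream of the start. That of Hmgcs1, chr13:119690101-119690400 on the plus strand, holds CCAAT, read on the opposite strand as ATTGG, 237, 176 and 45 bases upstream and once more after the start, with its sterol element between those at 176 and 45.
Msmo1: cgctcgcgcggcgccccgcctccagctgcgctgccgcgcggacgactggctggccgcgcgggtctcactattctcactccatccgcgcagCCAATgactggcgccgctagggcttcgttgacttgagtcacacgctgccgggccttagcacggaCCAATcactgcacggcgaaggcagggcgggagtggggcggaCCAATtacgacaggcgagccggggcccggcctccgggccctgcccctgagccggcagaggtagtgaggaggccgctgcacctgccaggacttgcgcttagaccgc
Hmgcs1: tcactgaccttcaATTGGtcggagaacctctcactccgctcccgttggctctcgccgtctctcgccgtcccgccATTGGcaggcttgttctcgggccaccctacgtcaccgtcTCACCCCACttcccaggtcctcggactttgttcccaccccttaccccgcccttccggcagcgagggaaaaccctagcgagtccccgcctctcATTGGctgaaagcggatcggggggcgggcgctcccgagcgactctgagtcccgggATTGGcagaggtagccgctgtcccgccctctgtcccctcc

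Among 17 SREBP regulators, uptake and fatty acid genes, Fads1 alone was called. Fads1, the delta-5 desaturase that makes arachidonic acid, measured 9.97 to 10.15 in the 5 MAM brains, against 10.40, 10.45 and 10.54 in vehicle brain (-0.41, SE 0.06, adjusted p = 0.025). It was among the tightest differences in these brains, and it was -0.21 at its next brightest probe set. The list had 14 negative differences and a median of -0.18, where 0.104% of all genes were called lower and 48.5% had a positive difference. Srebf2 itself differed by -0.23 and Srebf1 by 0.34, and neither passed.

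Oligodendrocyte and myelin genes held 2 calls, both lower. Ugt8a, which makes galactocerebroside, the main glycolipid of myelin, measured 9.10, 9.01, 9.33, 9.60 and 8.80 in MAM brain, against 9.69, 9.94 and 10.16 in vehicle brain. All MAM brains were below all vehicle brains, with animal A969 the nearest. The difference was -0.79 (SE 0.12, adjusted p = 0.025), and -0.86 at a second probe set. Opalin, a glycoprotein of myelin, overlapped between the groups (7.78 to 8.70 in MAM brain, 8.40 to 9.13 in vehicle brain); it was called at -0.60 (adjusted p = 0.04), but its next brightest probe set gave 0.06. Of 25 measured oligodendrocyte and myelin genes these 2 were called lower and 0 higher, 19 had a negative difference, 13 had an unadjusted p under 0.05, and the median was -0.13. Over all genes 0.104% were called lower and 48.5% had a positive difference, and 8.27% of probe sets had an unadjusted p under 0.05. Mbp, the myelin basic protein, differed by 0.00, Mog by -0.36 and Mobp by 0.20, and none of them passed. Anln, an actin-binding protein that assembles septins, was higher (9.25 to 9.58 in MAM brain, 8.83 to 9.16 in vehicle brain; 0.41) and passed only with the shared spread (adjusted p = 0.063 and 0.012). Serpinb1a, an inhibitor of serine proteases, had the largest fall among called genes (-1.11, SE 0.18, 2.16-fold, adjusted p = 0.034), at 6.77, 6.65, 7.21, 7.88 and 6.70 in MAM brain and 7.83, 8.11 and 8.48 in vehicle brain, with animal A969 inside the vehicle range. Of 14 measured precursor and newly formed oligodendrocyte genes 0 were called in either fit (median -0.15), although the mean over the list was 7.62 to 7.75 in MAM brain and 7.75 to 7.91 in vehicle brain, just without overlap.

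Microglial markers had mostly negative differences, with 1 call. Fcrls, an Fc receptor-like protein found in microglia, measured 6.79, 6.92, 6.87, 7.21 and 6.87 in MAM brain, against 7.38, 7.50 and 7.78 in vehicle brain (-0.61, SE 0.10, adjusted p = 0.044). No MAM brain overlapped the vehicle brains. Of 21 measured microglial genes Fcrls was called lower and 0 higher, 20 had a negative difference, and the median was -0.24. The shares over all genes were 0.104% called lower and 48.5% with a positive difference. P2ry12, the purine receptor by which microglia sense ATP, and Olfml3, a secreted microglial protein, passed with the shared spread (-0.56 and -0.45, adjusted p = 0.021 and 0.0080; 0.13 and 0.13 from 11 arrays), and both were named after their values were seen. Csf1r, the growth factor receptor on which microglia depend, differed by -0.08 and C1qb by 0.03, both without passing. Averaged over the list, the level was 7.15 to 7.47 in MAM brain and 7.50 to 7.73 in vehicle brain. Ly86, the myeloid protein MD-1, was also called lower (7.84 to 8.05 in MAM brain, 8.32 to 8.50 in vehicle brain; -0.50, SE 0.07, adjusted p = 0.018), but did not pass with the shared spread (adjusted p = 0.08).

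Endothelial and pericyte genes held 3 lower calls and 1 higher. Cldn5, the claudin that seals the blood-brain barrier, measured 8.20, 8.08, 8.24, 8.62 and 8.21 in MAM brain, against 8.56, 8.76 and 8.85 in vehicle brain, with animal A969 inside the vehicle range (-0.49, adjusted p = 0.046). Kdr, the VEGF receptor 2, measured 6.64, 6.74, 6.91, 6.96 and 6.80 in MAM brain, against 7.11, 7.27 and 7.40 in vehicle brain (-0.46, adjusted p = 0.045). Rgs5, a pericyte regulator of G protein signaling, measured 9.75 to 10.03 in the 5 MAM brains, against 10.24, 10.40 and 10.50 in vehicle brain (-0.47, adjusted p = 0.031), and its second probe set gave -0.43. Kdr and Rgs5 did not overlap between the groups. Vwf, the von Willebrand factor that endothelium stores and secretes, went the other way, at 7.30, 7.15, 7.47, 6.91 and 7.30 in MAM brain and 6.08, 6.54 and 6.87 in vehicle brain (0.72, SE 0.12, adjusted p = 0.048), but with the spread shared with wt, where the difference was 0.66, it did not pass (adjusted p = 0.067). Of 22 measured endothelial genes, Vwf was called higher and Cldn5 and Kdr lower. In 15 of the 22 the difference was negative, and the mean over the list was 7.61 to 7.72 in MAM brain and 7.72 to 7.83 in vehicle brain, with every MAM brain below every vehicle brain. Among all genes 0.126% were called higher and 0.104% lower, and 48.5% had a positive difference. The endothelial median was -0.14, Vwf lost its call with each array left out, and with the shared spread 1 gene was higher (Slc2a1, the glucose transporter GLUT1, 0.40) and 5 lower. Those 5 were Cldn5, Kdr, Emcn, a sialomucin of veins and capillaries (-0.52), Tek, the angiopoietin receptor (-0.42), and Slco1c1, a thyroxine transporter (-0.40), the last 3 and Slc2a1 named after their values were seen. Of 13 pericyte and smooth muscle genes Rgs5 alone was called, and Pdgfrb and Acta2 differed by -0.15 and 0.05. That list did not move as Rgs5 did, with 7 positive and 6 negative differences. Its median was 0.04 (-0.05 in the 300s and 0.06 in the 900s animals).

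Astrocyte genes split as well. Aqp4, the water channel of astrocyte endfeet, measured 10.07, 10.11, 10.27, 10.45 and 9.89 in MAM brain, against 10.59, 10.67 and 10.81 in vehicle brain (-0.53, SE 0.09, adjusted p = 0.045), with -0.66 at a second probe set. Gjb6, above, rose in the same brains. These were the only calls among 20 measured astrocyte genes, 1 higher and 1 lower (against 0.126% and 0.104% of all genes). The list's median was -0.06, and 13 of the 20 differences were negative (48.5% of all genes had a positive one). With the shared spread 2 of the 20 passed in each direction. Gfap differed by -0.16 and Aldh1l1 by -0.06, neither passing. Fabp7, a fatty acid-binding protein of radial glia and astrocytes that is in no list used here and was picked after its values were seen, had the largest difference of all that passed only with the shared spread. It averaged 9.06 ± 0.96 in MAM brain (SD, n = 5) and 10.68 ± 0.36 in vehicle brain (n = 6), a difference of -1.55 (SE 0.30, adjusted p = 0.073 from 11 arrays and 0.0012 from 22) that was -0.74 in the 300s and -2.20 in the 900s animals.

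The remaining falls concerned genes of several kinds. Igsf1, an immunoglobulin superfamily protein, measured 6.23, 6.14, 6.21, 6.37 and 6.39 in MAM brain, against 6.52, 7.02 and 7.43 in vehicle brain (-0.79, adjusted p = 0.023). Mthfd2, a mitochondrial enzyme of folate metabolism, measured 6.07 to 6.51 in MAM brain and 6.68 to 7.32 in vehicle brain (-0.64, adjusted p = 0.048). Both were lower in every MAM brain. So were Pnoc, the precursor of the opioid-like peptide nociceptin (-0.57), Slc16a14, a monocarboxylate transporter family member (-0.59), Rasgrp3, a Ras activator (-0.48), and the mitochondrial assembly factors Bcs1l and Coa3 of respiratory complexes III and IV (-0.44 and -0.38). Zfp800, a zinc finger protein, differed by -1.09 (adjusted p = 0.048), with a wide vehicle range (5.02 to 6.78) that overlapped the MAM brains (4.78 to 5.16) and -0.04 at its next brightest probe set.

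DNA repair and damage-response genes showed no calls at this time. Among 25 measured genes of alkylation, mismatch and excision repair, 20 of the damage kinases and double-strand break repair, and 24 p53 targets, 0 were called in either direction from the 11 arrays, with medians of 0.03, -0.04 and 0.10. With the shared spread, Cdkn1a alone among them passed. From the 11 arrays there were also 0 calls in the lists of excitatory neurons (median 0.04), inhibitory neurons (0.00), interferon response (0.05), inflammation and acute phase (0.10), immediate early genes (-0.15), circadian clock (0.14), proliferation and neuroblasts (-0.09), endoplasmic reticulum chaperones (-0.11), tau and microtubules (-0.12), insulin, IGF and PI3K signaling (-0.05), Wnt signaling (-0.01), MAPK signaling (-0.03), hypothalamus (-0.15), striatum (0.11) and oxidative phosphorylation (-0.04). With the shared spread 1 gene passed in each of 3 of these lists. They were Ppp1r1b of the striatum list (0.41, limma adjusted p = 0.026), Cartpt of the hypothalamus list (-0.89, adjusted p = 0.018) and 1 lower gene of the tau and microtubule list. In that last list 17 of 19 genes had a negative difference (48.5% of all genes had a positive one). The defining neuronal markers were present at like levels in both groups, the mean of 14 excitatory markers being 9.26 to 9.47 in MAM brain and 9.13 to 9.46 in vehicle brain.

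The 5 MAM animals differed in how far they moved. For each animal the deviation of each gene from the vehicle mean of its own number set was taken. The median over the 38 glucocorticoid-induced genes was 0.32, 0.65, 0.53, 0.21 and 0.40 in MAM animals A345, A347, A967, A969 and A971, against -0.05 to 0.05 in the vehicle animals. Over the 17 cholesterol synthesis genes it was -0.22, -0.30, -0.33, -0.14 and -0.36 in the MAM animals in the same order. Animal A969 was thus nearest to vehicle on both lists. Over the 23 called higher genes, which these animals chose, the medians were 0.65, 0.74, 0.65, 0.46 and 0.56 and over the 19 called lower genes -0.55, -0.48, -0.58, -0.35 and -0.74.

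**Figure D4:**
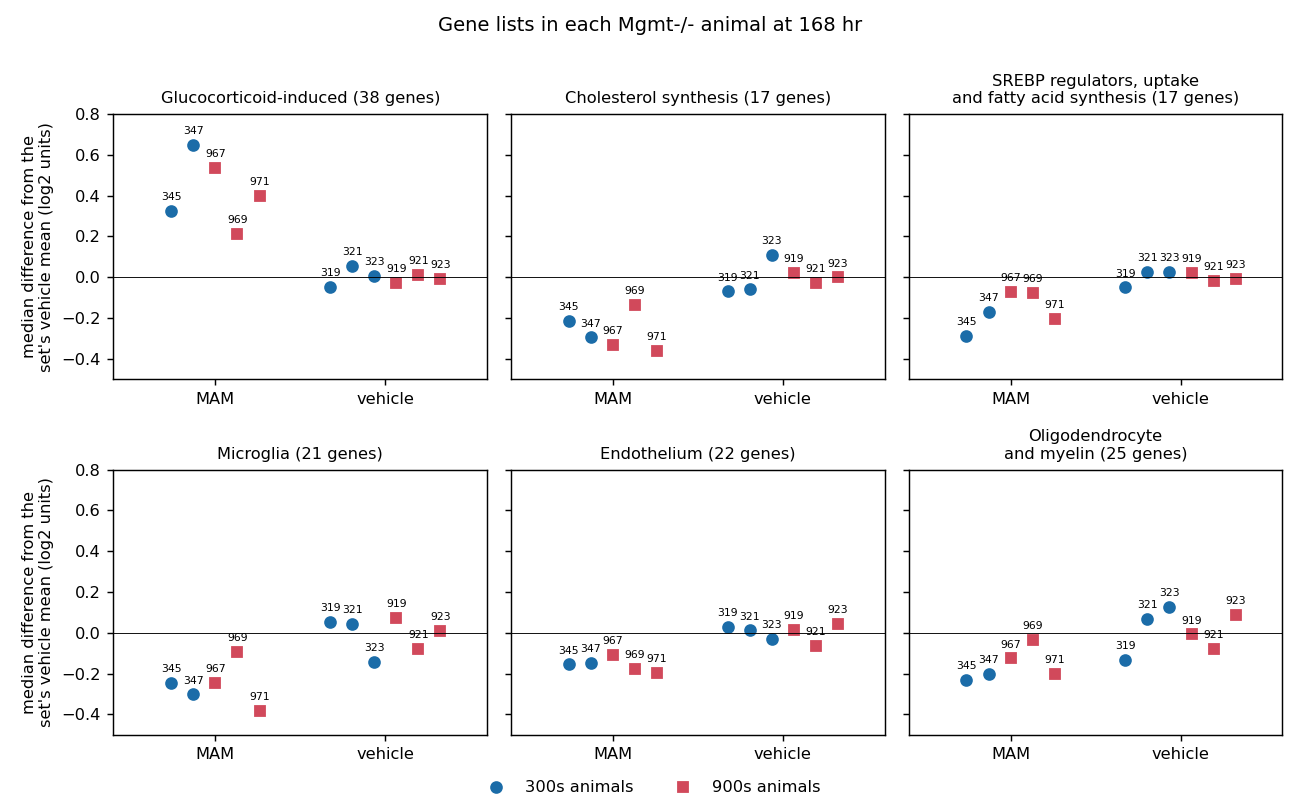
Median difference of 6 gene lists from the vehicle mean of the animal's own number set, in log2 units (vertical axes), in each MAM (left) and vehicle (right) animal of Mgmt-/- genotype at 168 hr, labelled by animal number, with circles for 300s and squares for 900s animals. The glucocorticoid-induced list stands at 0.21 to 0.65 in the MAM animals and -0.05 to 0.05 in the vehicle animals, and the cholesterol synthesis list at -0.14 to -0.36 in the MAM animals. Each vehicle animal is part of the mean it is compared with, which draws its values toward 0.

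Whether these changes differed from those in wt brain was tested as the genotype by treatment interaction over the 22 arrays at 168 hr. In wt brain itself 0 genes were called (limma, smallest adjusted p 0.91, 1963 probe sets with an unadjusted p under 0.05). The interaction was called in 16 genes (0.0879%), 9 more positive and 7 more negative in Mgmt-/- brain, and 13 of them were among the 42. Sult1a1 measured 6.16 to 6.90 in wt MAM brain and 6.66 to 6.94 in wt vehicle brain, below every Mgmt-/- MAM brain, and its interaction was 1.88 (adjusted p = 8.8e-05). Sgk1 measured 8.79 to 9.74 in wt MAM brain and 9.24 to 9.64 in wt vehicle brain (interaction 1.61, adjusted p = 0.0015), and Etnppl 8.78 to 9.11 in wt MAM brain and 8.85 to 9.17 in wt vehicle brain (1.37, adjusted p = 0.00026). In these genes the wt groups overlapped throughout. The others with a more positive effect in Mgmt-/- brain were Gm19439 (1.35), Fkbp5 (0.91, adjusted p = 0.013), Fbln5 (0.82), Cyp2d22 (0.60) and Gjb6 (0.55), and, outside the 42, the angiotensinogen gene Agt of astrocytes (0.72, adjusted p = 0.041). Ugt8a (-0.78), Mthfd2 (-0.75), Fcrls (-0.69), Msmo1 (-0.54) and Fads1 (-0.48) had more negative effects, as did, outside the 42, the histone variant gene Macroh2a1 (-0.56) and the cytokine receptor subunit Il6st (-0.50). For the other 29 of the 42 genes the interaction did not pass, and Vwf, with 0.72 in Mgmt-/- brain and 0.66 in wt brain, had an interaction of 0.06 (SE 0.26). Leaving out 1 array gave 8 to 39 genes with a difference between genotypes, the most without MAM animal A969. Liver transcripts varied among the wt arrays too. The median level of the liver list was 7.01 in wt vehicle animal A123, against 4.71 to 5.82 in the other wt arrays at 168 hr. The list's median MAM effect was -0.32 in wt brain and 0.17 in Mgmt-/- brain. The part of liver RNA in the genotype differences was not tested.

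Earlier times were compared in the same way, with the MAM effect at 168 hr set against that at 6, 24 and 48 hr in Mgmt-/- brain. The effect differed from that at 24 hr in 29 genes (0.159%), 16 of them among the 42. It differed in 0 genes (0%) from that at 6 hr (3502 probe sets with an unadjusted p under 0.05, limma; 1 gene by an ordinary linear model) and in 0 genes (0%) from that at 48 hr (1150 probe sets with an unadjusted p under 0.05, limma). These comparisons share the 168 hr arrays. The study's supplement marks the Mgmt-/- MAM samples of 1 site at 24 hr as possibly erroneous, because no adducts were found in them. No label ties a number set to a site, so whether those samples fall in the 300s or the 900s is unknown here. In the 300s animals alone 14 genes differed from 24 hr, and in the 900s animals alone 0. All 16 of the 42 had the same direction of difference in both sets. The arrays of both sets chose these 16, so this is a description and not a check on the 24 hr samples. The glucocorticoid-induced median at 24 hr was -0.08 in the 300s and -0.01 in the 900s animals. The median of the glucocorticoid-induced list was 0.16, -0.04, 0.22 and 0.39 at 6, 24, 48 and 168 hr, and 9 of its 38 genes differed between 168 and 24 hr. Sult1a1 had MAM effects of 0.34, -0.40, 0.55 and 1.68 at the 4 times (168 against 24 hr, difference 2.07, adjusted p = 0.0015), and Etnppl of 0.15, -0.08, 0.61 and 1.24 (1.33, adjusted p = 0.0046). Both had their largest value at the last time. At 24 hr the sets differed, with Sult1a1 at -1.01 in the 300s and 0.21 in the 900s animals and Etnppl at -0.46 and 0.29. Cholesterol synthesis genes had medians of 0.11, -0.02, -0.02 and -0.29, with Hmgcs1 alone differing from 24 hr (0.44, 0.21, 0.06 and -0.38 over the 4 times). Microglial genes had medians of 0.09, -0.07, -0.09 and -0.24, and oligodendrocyte genes of 0.16, -0.03, -0.01 and -0.13. Aqp4 had effects of 0.21, 0.16, -0.12 and -0.53, and Ugt8a of 0.31, 0.09, -0.19 and -0.79, and both differed from 24 hr (adjusted p = 0.028 each). Zfp800 was unlike these, with -0.99, -1.04, -1.22 and -1.09 at the 4 times and -0.09 in wt brain at 168 hr. For the other 26 of the 42 genes no difference from an earlier time passed the test.

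**Figure D5:**
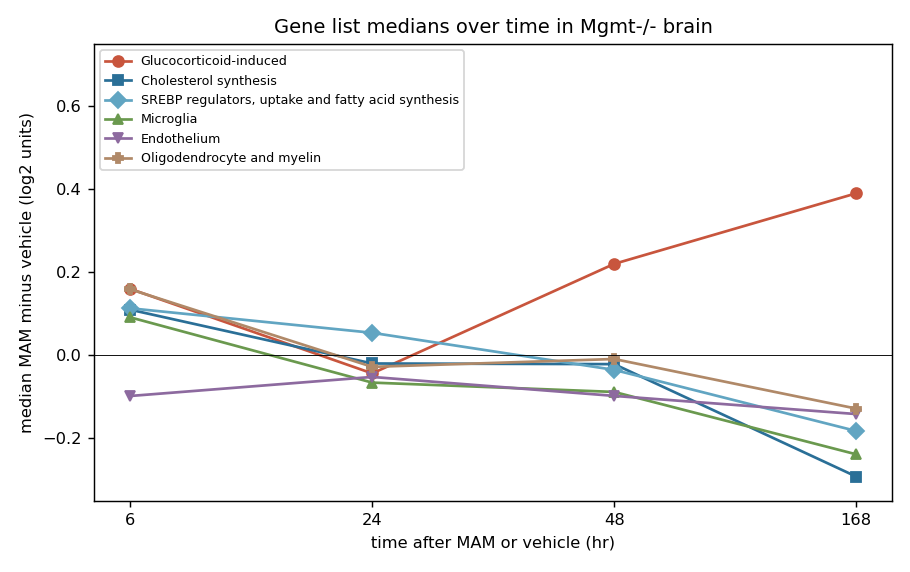
Median MAM minus vehicle difference of 6 gene lists in Mgmt-/- brain, in log2 units (vertical axis), at 6, 24, 48 and 168 hr (horizontal axis, evenly spaced categories, not to scale), with 1 line per list. The glucocorticoid-induced list reads 0.16, -0.04, 0.22 and 0.39, and the cholesterol synthesis list 0.11, -0.02, -0.02 and -0.29.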

How the data were processed

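The deposited values are log2 intensities, 1 per probe set and array, that the authors computed by RMA with the affy package (background correction, quantile normalization and median polish). No source used here states the version of affy or which arrays were normalized as 1 set. The values were used as deposited, for 45101 probe sets with 0 missing values. Of these, 34958 named 1 gene (18194 genes), and a gene was read by its brightest such probe set. The arrays are of separate animals, and their number limits the precision.

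MAM was compared with vehicle in 11 Mgmt-/- arrays at 168 hr (without animal A343) by limma (version 3.58.1, under R 4.3.3; tables read by data.table, version 1.17.8), with the animal-number set as a block, since the numbers were taken to mark the 2 study sites. That reading is an assumption, because the sample labels name no site. P-values were adjusted by the Benjamini-Hochberg method over all probe sets, and a gene was called at an adjusted p under 0.05 and a fold above 1.3, the study's thresholds. The genotype interaction used 22 arrays and each time interaction 23. List levels are means of log2 values, and list medians are over fitted differences. The calculation was tested on simulated data. Promoter windows came from RefSeq (GRCm38.p6), and the plots were made in Python 3.11.15 using matplotlib 3.10.9.

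Genes were named by rule: Mgmt, the 15 largest called rises and falls with 1 direction in both number sets, the called members of each of 47 gene lists (up to 8, or the 2 largest differences), and the 5 called genes each way with the largest genotype difference; others are said to have been picked after their values were seen, and the remaining called genes are named to complete the count of 42. The members and lists were chosen with earlier results of these data known. Alternatives covered the study's laboratory filter, the block, the spread, animal A343, dim probe sets, the fold threshold, the probe set, cyclic loess, the RNA index, the ordinary linear model, array weights, each number set alone and each array left out. The next brightest probe set, and the alternatives, number sets alone included, for the time comparison and the RNA index, were added after the data were seen. The number of columns left unused for want of a sample was 0.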

Additional observations from a re-analysis of the deposited data

Results flagged for a closer look

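Of 118 groups of values checked for an array far from the others, 5 had one, close to the 1 in 20 that chance gives. Etnppl was 8.75 in vehicle animal A319, against 9.22 to 9.43 in the other vehicle brains, and Fbln5 was 6.89 in vehicle animal A321, against 6.65 to 6.73. Prodh was 7.95 in MAM animal A969, against 8.21 to 8.30 in the other MAM brains, and Spaca6 was 5.97 in the same animal, against 6.33 to 6.44. The mean level of the choroid plexus list was 6.11 in vehicle animal A321, against 6.42 to 6.57.

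The MAM effect at 168 hr differed between Mgmt-/- and wt brain by the interaction test in 13 of the 42 called genes. The Mgmt-/- arrays of that test also chose the 42. Mgmt-/- minus wt, in log2 units, was 1.88 for Sult1a1, 1.61 for Sgk1, 1.37 for Etnppl, 1.35 for Gm19439, 0.91 for Fkbp5, 0.82 for Fbln5, 0.60 for Cyp2d22 and 0.55 for Gjb6, and -0.78 for Ugt8a, -0.75 for Mthfd2, -0.69 for Fcrls, -0.54 for Msmo1 and -0.48 for Fads1.

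The effect at 168 hr differed from that at 24 hr in 16 of the 42. Effect at 168 minus effect at 24 hr was 2.07 for Sult1a1, 1.80 for Sgk1, 1.64 for Gm19439, 1.33 for Etnppl, 1.19 for Xdh, 0.89 for Apod, 0.89 for Fkbp5, 0.86 for Cyp4f15, 0.77 for Prodh, 0.75 for Lrg1, 0.70 for Fam107a, 0.61 for Gjb6 and 0.56 for Scrg1, and -1.07 for Serpinb1a, -0.88 for Ugt8a and -0.69 for Aqp4.

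The array of MAM animal A343, which was left out of the comparisons as reported, had a liver list median of 13.57 and an Alb level of 14.05, and a mean correlation of 0.74 with its group.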

How the results depend on the processing

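The counts of genes called from 11 arrays (23 higher and 19 lower) moved with the processing, and the number of arrays limits them. They were 60 and 81 with all 22 arrays in the fit, 39 and 44 among probe sets with a mean of 6 or more, and 45 and 47 with array weights. The lower count was 7 with no number set term, 30 with any probe set of a gene and 34 with the RNA index as covariate, while the higher count stayed within 1.5 times. Both counts were 0 with animal A343 put back, 0 by the ordinary linear model (limma's moderated test gave 3730 probe sets at an unadjusted p under 0.05) and 0 in the 300s animals alone, and they were 4 and 10 in the 900s animals alone. Leaving out 1 array gave 5 (without vehicle animal A919) to 23 higher genes and 0 (without MAM animal A345 or vehicle animal A919 or A923) to 23 lower genes (without MAM animal A969). The cause was not tested. The study's laboratory filter, cyclic loess and no fold threshold kept both counts within 1.5 times.

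Genes with a genotype difference numbered 16 as reported, 1 with animal A343, 27 with any probe set and 6 by the ordinary linear model, and 8 to 39 with each array left out. Genes whose effect differed from 24 hr numbered 10 (without MAM animal A347) to 40 (without MAM animal A969), 14 in the 300s and 0 in the 900s animals alone, from 6 hr 0 to 4 and 1 by the ordinary linear model, and from 48 hr 0 to 1. The RNA index difference of -0.032 was 0.034 with animal A343 and -0.064 to 0.016 with each array left out, positive without vehicle animal A321.

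With animal A343, which holds liver RNA, the differences turned to -0.52 for Fam107a, -0.40 for Apod, -0.23 for Fmod, -0.38 for Gjb6, -0.43 for Ttyh1 and -0.28 for Scrg1. Another probe set was present for 24 of the called genes. At the next brightest one 22 of these 24 kept their direction, but only 4 were called. Among the 24, the median difference of the higher genes was 0.60 at the brightest and 0.34 at the next brightest probe set. That of the lower genes was -0.59 and -0.30. The 2 genes that changed sign there were Opalin, at 0.058, and Msmo1, at 0.013. The glucocorticoid-induced median ranged over 0.32 to 0.51 in 23 settings and the microglial one over -0.29 to -0.17, and the cholesterol synthesis median of -0.29 was 0.22 with animal A343. No paired analysis was possible because the animals' numbers are not shared between groups.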

Other observations

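Of the genes that passed with the spread shared with the wt arrays, 39 were among the 42 described above, and those given here were picked from the others after their values were seen. Several are expressed in oligodendrocytes. Klk6, a secreted protease, averaged 7.28 ± 0.46 in MAM brain (SD, n = 5) and 8.12 ± 0.32 in vehicle brain (n = 6), a difference of -0.87 (adjusted p = 0.12 from 11 arrays and 0.0073 from 22). Car2, a carbonic anhydrase, averaged 11.15 ± 0.19 in MAM brain and 11.61 ± 0.09 in vehicle brain (-0.47, adjusted p = 0.065 and 0.0011), with every MAM brain below every vehicle brain. Gatm, which starts creatine synthesis, differed by -0.78 and the myelin protein Pllp by -0.47, and in wt brain these 4 genes differed by -0.02 to 0.10. Their interaction with genotype did not pass (adjusted p = 0.055 to 0.17). Igtp and Irgm2, interferon-inducible GTPases, averaged 7.25 ± 0.33 and 5.84 ± 0.34 in MAM brain and 6.67 ± 0.28 and 5.24 ± 0.14 in vehicle brain (0.57 and 0.58, adjusted p = 0.25 and 0.14 from 11 arrays and 0.044 and 0.028 from 22). In wt brain their differences were 0.20 and 0.38, and their interaction with genotype did not pass. Neither gene was in the interferon response and antigen presentation list, which went both ways. Of its 25 measured genes 14 had a positive and 11 a negative difference, from -0.57 (H2-Aa) to 0.40 (Ifit1). Its median was 0.05 (0.14 in wt brain), and 0 were called in either fit.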
